A study of Mus musculus with 9 samples.

Results

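The genes described here encode the proteins of the mitochondrial ribosome, and their mRNA was measured in mouse ES cells after withdrawal of Thr or of Cys. Members were all protein-coding genes of the count table whose symbol is Mrpl or Mrps followed by a number, in GENCODE M21 on GRCm38. The rule uses names only and no measured value. It found 77 members among 20189 genes, of which 48 are Mrpl and 29 are Mrps genes. GENCODE holds 78 such genes, and Mrpl53 was not analysed here. A further 4 matching symbols in the table are pseudogenes and were left out.

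The cells were E14, a wild-type mouse ES cell line, grown without feeders on gelatin in serum with LIF. Poly(A) RNA was sequenced from 3 Thr-starved, 3 Cys-starved and 3 unstarved samples, with starvation lasting 3 h and the unstarved cells kept in medium holding all amino acids. The protocol text given with the samples describes media lacking Arg or Leu, so the Thr and Cys withdrawal is known from the sample titles and the methods of the study. The methods speak of triplicates without saying whether these were separate cultures, so the p-values measure the spread between these samples, which may be technical. Cells of a single line were compared at a single time point.

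The mitochondrial ribosome translates the few mRNAs that the mitochondrial genome encodes, all of them for subunits of the respiratory chain and ATP synthase. Its rRNAs come from the mitochondrial genome, whereas its proteins are encoded in the nucleus, made in the cytosol and imported. Part of these proteins descend from the bacterial ribosome, and the others are found in mitochondria only. The large subunit forms peptide bonds and holds the exit tunnel, and the small subunit binds mRNA and decodes it. Mrpl symbols stand for large and Mrps symbols for small subunit proteins, with exceptions: the products of Mrps18a and Mrps30 sit in the large subunit, and that of Mrps36 belongs to the oxoglutarate dehydrogenase complex. With these moved to their place, 50 members belong to the large and 26 to the small subunit.

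Total counts ranged from 48763102 to 74962733 per library. ES cell markers were high in every group, with the summed level of 10 markers at 4493 ± 21.2 CPM (counts scaled to library size with TMM factors, mean ± SD, n = 3) in unstarved, 4241 ± 18.6 in Cys-starved and 4567 ± 46.0 in Thr-starved cells. The sums hide single markers that moved both ways. Their log2 fold changes against unstarved cells ran from −1.69 to 0.85 with Thr and from −0.50 to 0.26 with Cys. Of the 10 markers, 5 lay above 0 with Thr and 3 with Cys. Fibroblast markers, of which 5 of 8 were in the table, summed to 10.1 to 11.4 CPM in the Thr-starved and to 13.7 to 16.8 CPM in the other 6 libraries. Primitive endoderm markers summed to 8.12 to 12.7 CPM over all libraries and trophoblast markers, 4 of 6 in the table, to 3.98 to 5.51 CPM. At these low levels their single log2 fold changes with Thr ran from −1.69 to 1.73 and from −1.53 to 1.75. The part of all these markers in the results was not tested. In bulk RNA a change in the mix of cells and a change within cells cannot be told apart.

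All 77 members were expressed. The lowest count of any member in any library was 275, and mean levels ran from 11 to 152 CPM with a median of 40.9. All members together made up 0.365% ± 0.00114 (SD, n = 3) of the counts in unstarved cells. Per kilobase of the principal transcript, the highest levels in unstarved cells were those of Mrpl42, Mrpl52 and Mrpl34, at 134 ± 1.22, 93.2 ± 1.87 and 86.2 ± 3.04 CPM per kilobase (SD, n = 3). The lowest were those of Mrpl48, Mrpl57 and Mrpl32, at 4.76 ± 0.156, 7.12 ± 0.0363 and 7.99 ± 0.250 CPM per kilobase. Mrpl42, Mrpl52, Mrpl48 and Mrpl57 encode mitochondrion-specific large subunit proteins. The order rests on annotated transcript length, which runs from 418 to 7300 bases over the members.

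Thr starvation moved single members in both directions around a median close to 0. Of the 77 members, 33 rose and 26 fell (adjusted p of 0.05 or less, edgeR quasi-likelihood test over 20143 genes), where 63% of all genes were called in either direction, 31.1% higher and 31.9% lower. In shares of the members this is 76.6%, 42.9% and 33.8%. Among the 11410 genes averaging 5 CPM or more, a level that every member passed, 80.6% were called, 41.5% higher and 39.1% lower. The median log2 fold change was 0.011 over the members and 0.011 over genes of at least 5 CPM. Values ran from −1.52 to 0.80. Only 3 members, 3.9%, changed by 1 or more on the log2 scale, against 13.2% of all genes, and all 3 of these fell. All genes include those of low level, and this share was not computed for genes of at least 5 CPM. All 3 Thr-starved libraries lay above all 3 unstarved ones for 35 members and under them for 25, against 32.6% and 33.9% of all genes, 66.5% in either direction. Of the 11410 genes of at least 5 CPM, 4805 lay above and 4548 under in this way.

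**Figure D1:**
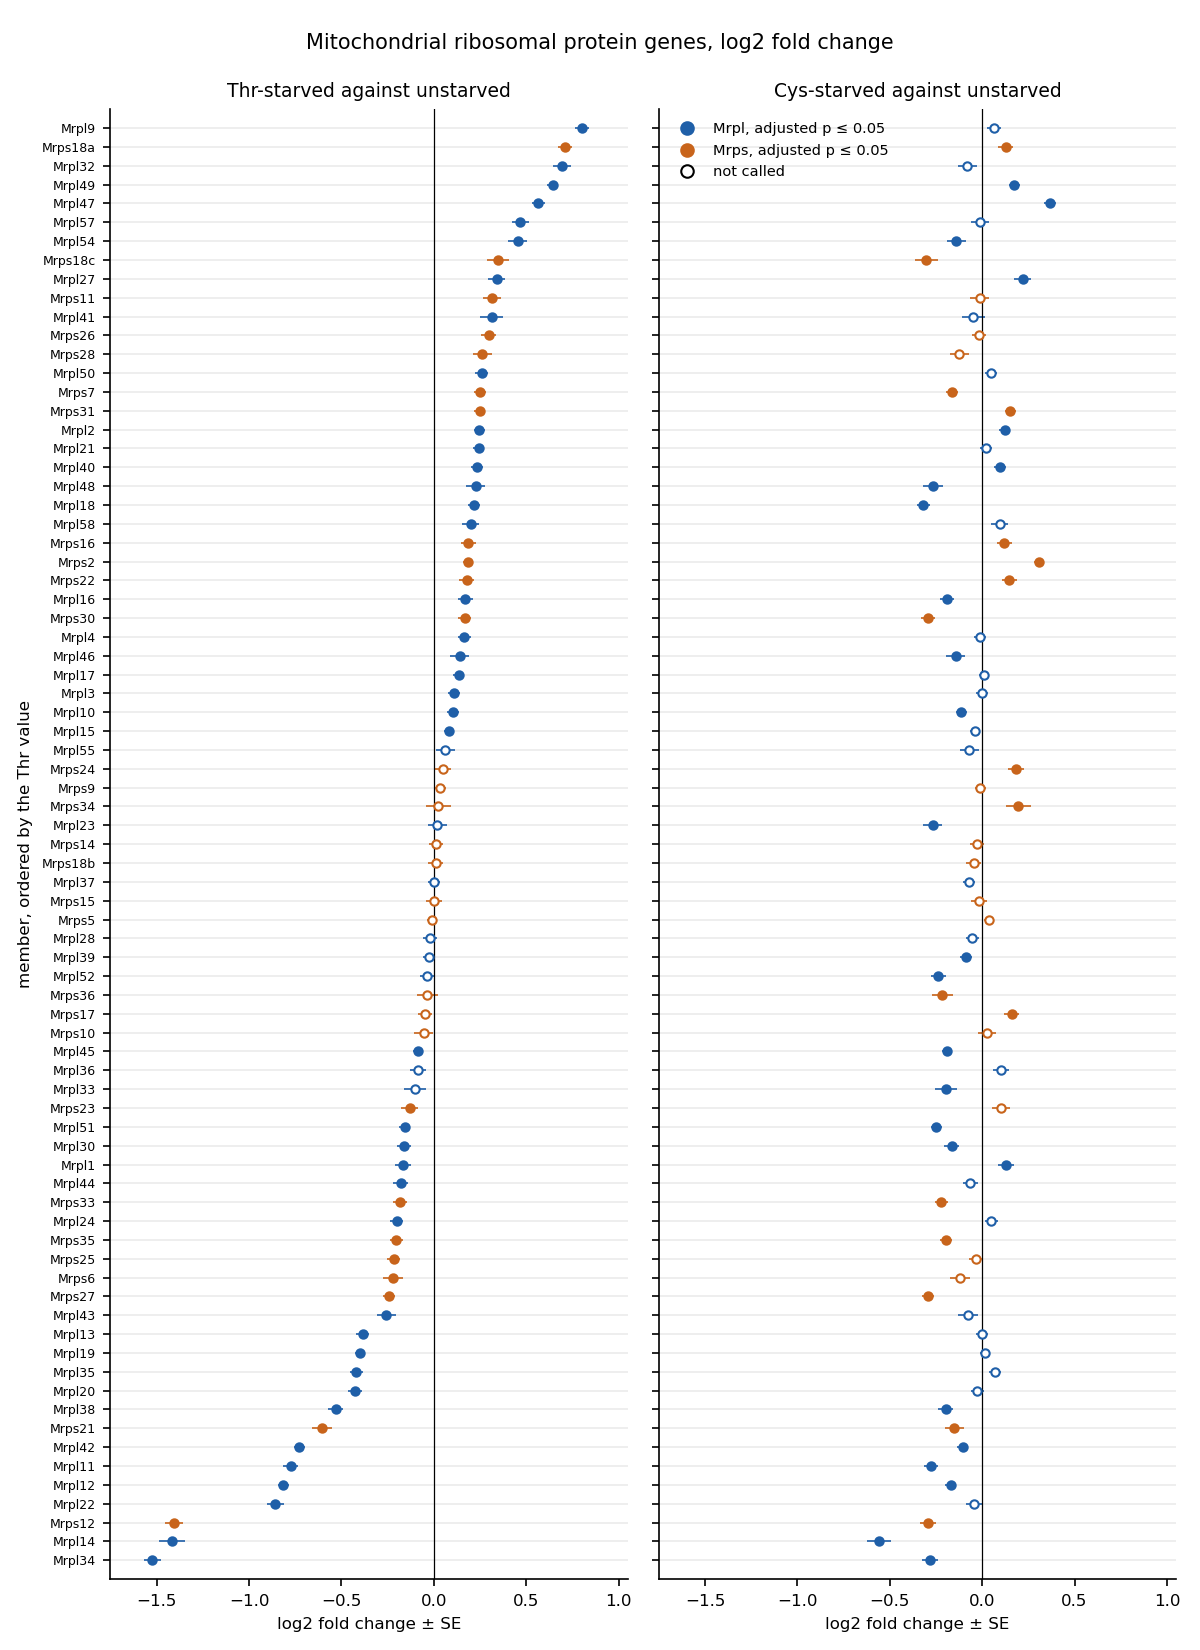
Fitted log2 fold change (x axis) of each of the 77 members (y axis, ordered by the Thr value) with Thr (left) and with Cys starvation (right) against the same 3 unstarved libraries; bars are ± SE, blue marks Mrpl and orange Mrps, and filled points passed an adjusted p of 0.05. With Thr the values run from −1.52 to 0.80 and with Cys from −0.56 to 0.37.

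Mrpl34, Mrpl14 and Mrps12 fell most with Thr starvation. Mrpl34 (chr8:71464959-71465747) encodes a short large subunit protein with a bacterial counterpart. It read 53.9, 52.8 and 50.3 CPM in the unstarved libraries, 43.9, 41.8 and 43.4 CPM in the Cys-starved and 18.2, 16.9 and 19.3 CPM in the Thr-starved libraries. The 3 groups did not overlap. The log2 fold change was −1.52 (SE 0.05, adjusted p = 7.0e-18), a level 65.2% lower in Thr-starved cells. Mrps12 (chr7:28739641-28741820, minus strand) encodes the protein that lines the decoding centre of the small subunit. Its level was 35.6, 38.3 and 37.3 CPM without starvation, 30.4, 29.97 and 30.5 CPM without Cys and 13.98, 14.8 and 13.3 CPM without Thr. Each starved group lay under all unstarved libraries, with log2 fold changes of −1.41 (SE 0.05, adjusted p = 4.9e-17) for Thr and −0.29 (SE 0.04, adjusted p = 1.2e-05) for Cys.

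Mrpl14 (chr17:45686322-45698495) encodes a protein of the face of the large subunit that meets the small one. It stood at 15.6, 16.1 and 16.5 CPM in unstarved, 10.1, 11.1 and 11.5 CPM in Cys-starved and 6.51, 5.77 and 5.82 CPM in Thr-starved libraries. This was the largest fall of any member with Cys, at −0.56 (SE 0.06, adjusted p = 4.2e-07), next to −1.42 (SE 0.07, adjusted p = 4.6e-14) with Thr. Its exons overlap those of Tmem63b on the other strand over 106 bases, and Tmem63b fell as well, by 0.75 with Thr and 0.18 with Cys on the log2 scale. The strand setting of the counting is not given in the sources used here.

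Next came Mrpl22, Mrpl12, Mrpl11 and Mrpl42, with log2 fold changes of −0.86, −0.81, −0.77 and −0.73 for Thr starvation (SE 0.03 to 0.05). Mrpl22 lines the exit tunnel of the large subunit. Its libraries read 33.2, 31.2 and 31.7 CPM unstarved, 30.6, 30.4 and 32.1 CPM without Cys and 18.2, 18.4 and 16.7 CPM without Thr, so that unstarved and Cys-starved libraries overlapped and the Thr-starved ones stood apart. A pseudogene, Gm6997, shares 86% of the Mrpl22 transcript at 97.1% identity and had 18.1% of its level, so reads can have been split between both. Mrpl42, the member with the highest level per kilobase, fell from 89.3 ± 0.814 to 53.9 ± 1.97 CPM (SD, n = 3).

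Mrpl9, Mrps18a, Mrpl32, Mrpl49 and Mrpl47 rose most with Thr starvation, all of them large subunit proteins by place. Mrpl9 (chr3:94443318-94451130), which has a bacterial counterpart, read 37.7, 35.8 and 39.6 CPM unstarved, 39.0, 39.5 and 39.6 CPM without Cys and 68.2, 63.7 and 65.3 CPM without Thr. The Thr-starved libraries stood above both other groups, with a log2 fold change against unstarved cells of 0.80 (SE 0.04, adjusted p = 2.5e-14) or 74.5%. Mrpl32 (chr13:14608184-14613165, minus strand), whose product is matured by a mitochondrial protease before it enters the large subunit, had 24.9, 24.04 and 23.4 CPM unstarved, 22.3, 22.6 and 23.4 CPM without Cys and 40.0, 35.6 and 40.9 CPM without Thr. The unstarved and Cys-starved libraries overlapped, and the Thr-starved level was higher by 0.69 (SE 0.05, adjusted p = 2.2e-11). Mrpl49, a mitochondrion-specific protein, rose from 63.0 ± 0.368 to 98.5 ± 0.308 CPM (SD, n = 3), or by 0.64 (SE 0.03, adjusted p = 5.9e-15).

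Mrpl47, a protein near the exit of the tunnel, rose in both starvations, from 35.4 ± 0.912 CPM to 52.4 ± 0.564 without Thr and 45.6 ± 0.546 without Cys (SD, n = 3). The log2 fold changes were 0.57 (SE 0.03, adjusted p = 1.7e-12) and 0.37 (SE 0.03, adjusted p = 2.1e-08), the latter the largest rise of any member with Cys. The difference between the starvations was itself called, at 0.20 (SE 0.03, adjusted p = 2.1e-05). Exons of Mrpl47 overlap those of Actl6a and Ndufb5 on the other strand over 1068 bases.

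**Figure D2:**
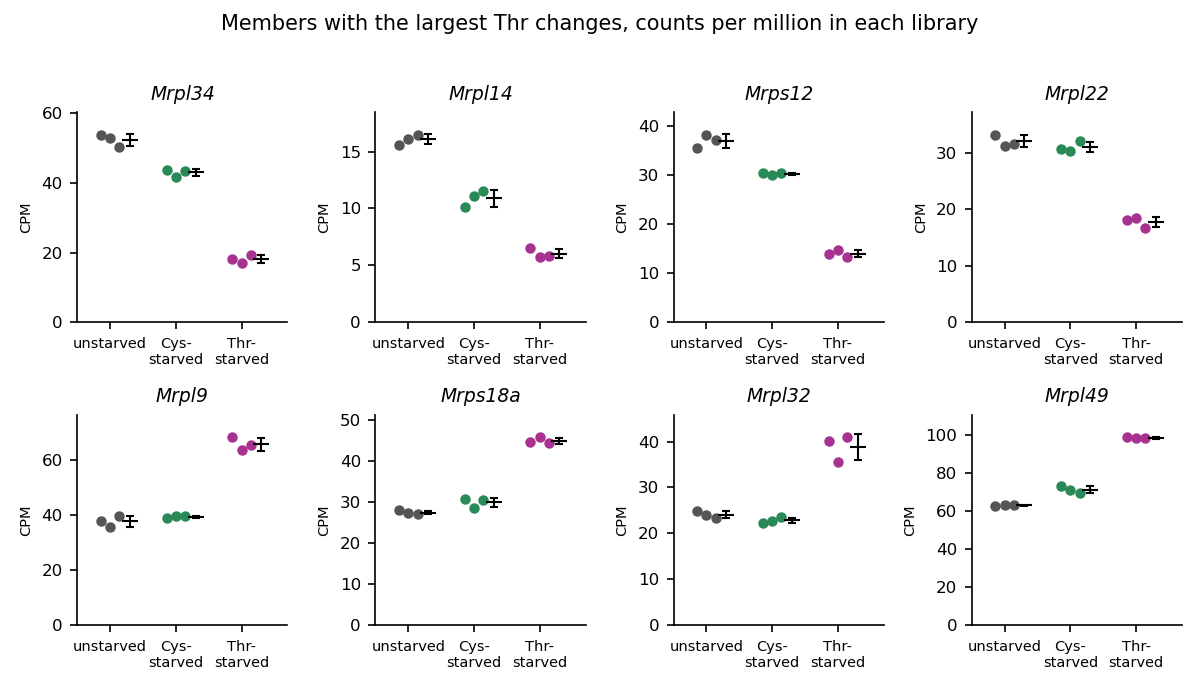
CPM (y axis, from 0) in each of the 9 libraries for the 4 members with the largest falls (upper row) and 4 with the largest rises (lower row) with Thr starvation; points are libraries and the bar beside them is the mean ± SD of 3. In all 8 panels the Thr-starved libraries lie apart from the unstarved ones, as for Mrpl34 at 16.9 to 19.3 against 50.3 to 53.9.

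Promoter sequences are shown for 2 members of each direction to set the elements of mitochondrial gene promoters beside the measured changes. Nuclear genes for mitochondrial proteins are often regulated by NRF1 and by ETS family factors such as GABP. RefSeq promoters (GRCm38.p6) were matched for 68 members, and the 250 bases before the start were searched on both strands. Below, capitals mark the ETS motif CCGGAAG in Mrpl34, Mrpl22 and Mrps18a and the palindromic NRF1 motif, its last 10 bases, in Mrpl9, and bases inside annotated exons were trimmed. Mrpl34 and Mrpl22 fell and Mrpl9 and Mrps18a rose with Thr starvation. The trimmed sequences of Mrps12, Mrpl12 and Mrpl32, also among the largest changes, held none of the motifs searched and are not shown. Trimming left 170 bases for Mrps12 and 74 for Mrpl32. In the 250 bases before trimming, Mrps12 held a YY1 motif and Mrpl32 an NRF1 and a YY1 motif.
Mrpl34 (chr8:71464676-71464925, plus strand): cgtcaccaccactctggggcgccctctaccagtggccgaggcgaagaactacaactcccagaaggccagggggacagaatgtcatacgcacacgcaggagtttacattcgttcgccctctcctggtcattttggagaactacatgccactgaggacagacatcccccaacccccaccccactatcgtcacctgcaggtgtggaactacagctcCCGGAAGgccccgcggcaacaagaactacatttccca
Mrpl22 (chr11:58171414-58171660, plus strand): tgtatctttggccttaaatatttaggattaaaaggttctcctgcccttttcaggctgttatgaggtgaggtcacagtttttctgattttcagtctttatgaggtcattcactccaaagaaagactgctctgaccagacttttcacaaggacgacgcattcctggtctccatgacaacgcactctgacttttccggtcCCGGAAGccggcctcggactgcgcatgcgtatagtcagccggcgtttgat
Mrpl9 (chr3:94443086-94443317, plus strand): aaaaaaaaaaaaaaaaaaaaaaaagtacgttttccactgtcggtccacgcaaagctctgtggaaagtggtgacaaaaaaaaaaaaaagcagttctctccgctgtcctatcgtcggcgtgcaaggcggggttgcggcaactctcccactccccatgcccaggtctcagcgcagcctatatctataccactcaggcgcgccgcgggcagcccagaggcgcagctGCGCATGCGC
Mrps18a (chr17:46110754-46110985, plus strand): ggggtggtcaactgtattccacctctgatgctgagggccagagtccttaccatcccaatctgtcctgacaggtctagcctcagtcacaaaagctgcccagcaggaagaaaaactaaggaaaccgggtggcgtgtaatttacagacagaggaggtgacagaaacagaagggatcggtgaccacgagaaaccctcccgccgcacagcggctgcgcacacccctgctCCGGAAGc

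The ETS motif thus stood within 60 bases of the start in members that fell and in a member that rose. It was in 16 member promoters, 23.5%, against 13.3% of all 11558 promoters. Of these 16 members, 10 rose and 5 fell with Thr and 3 rose and 7 fell with Cys. Of the 52 matched members without it, 19 rose and 17 fell with Thr, and 10 rose and 18 fell with Cys. The NRF1 motif was in 3 member promoters, 4.41% against 1.58% of all. Mrpl9 and Mrpl32 among them rose with Thr. The third was not called with Thr and was called lower with Cys, the latter in 14 of 21 fits. YY1 (AAGATGGC) was found in 4 and the cAMP response element (TGACGTCA) in 2 member promoters, against 1.97% and 2.71% of all promoters. The element TGATGNAA, bound by ATF4 with a C/EBP partner in amino acid stress genes, was in none of the 68 and in 1.84% of all. At that share few of 68 promoters would hold it, so finding none does not set the members apart. Bases farther from the start were not searched. A match describes these letters and is not a binding site.

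Many members share a start region with another gene. A protein-coding neighbour on the other strand, head to head and with its start within 500 bases, was annotated for 26 members, 33.8%, against 10.2% of the 14757 protein-coding genes of the table. For 17 of these 26 members both genes were called with Thr, and for 11 of the 17 they moved in the same direction. Such counts were not computed for the 1504 protein-coding genes with a neighbour of this kind, so they do not set the members apart. Mrpl46 and Mrps11 are each counted here. Among the others, Mrps12 and Sars2, the mitochondrial seryl-tRNA synthetase, start 232 bases apart and went opposite ways, at −1.41 and 0.44 on the log2 scale. Mrpl32 and the proteasome gene Psma2, 75 bases apart, also moved oppositely, at 0.69 and −0.25. Mrps27 and Ptcd2, 81 bases apart, both fell, at −0.24 and −0.67. Mrps18c and Helq, 29 bases apart, both rose, at 0.35 and 0.52. Mrpl46 and Mrps11 are a pair of members with starts 30 bases apart, and both rose with Thr, by 0.14 and 0.32, while with Cys Mrpl46 fell by 0.14 and Mrps11 had a log2 fold change of −0.01 (adjusted p = 0.86, edgeR). Their exons overlap over 173 bases.

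Cys starvation gave smaller changes, and which direction prevailed depended on scaling. Of the members 14 rose and 28 fell, or 18.2% and 36.4%, where 36.3% of all genes were called, 17.5% higher and 18.8% lower. Among genes of at least 5 CPM 55% were called, 24.6% higher and 30.5% lower. The median log2 fold change was −0.05 over the members, 0.01 over all genes and −0.02 over genes of at least 5 CPM, and no member reached 1 on the log2 scale, against 1.47% of all genes. The last share was not computed for genes of at least 5 CPM. The Cys-starved libraries lay wholly above the unstarved ones for 16 members and wholly under them for 32, against 23% and 23.5% of all genes, 46.4% together. Of the 11410 genes of at least 5 CPM, 3277 lay wholly above and 3991 wholly under. With TMM 33.3% of the member calls and 48.2% of all calls were on the higher side, and with the size factors that the authors deposited these shares were 21.4% and 36.8%, with 9 members higher. With library totals and no scaling factors they were 54.3% and 68%, with 25 members higher and 21 lower, and the medians were 0.018 over the members and 0.07 over all genes. Cys values below are those with TMM.

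After Mrpl14, the largest falls with Cys were those of Mrpl18, Mrps18c, Mrps27 and Mrps30. Mrpl18 (chr17:12911349-12916345, minus strand) has a bacterial counterpart in the large subunit. It had 83.3, 78.0 and 77.4 CPM unstarved, 62.3, 66.3 and 62.8 CPM without Cys and 95.8, 89.3 and 92.4 CPM without Thr. The groups did not overlap and lay on both sides of the unstarved level, with −0.32 (SE 0.04, adjusted p = 2.3e-07) for Cys and 0.22 (SE 0.03, adjusted p = 9.7e-06) for Thr. Mrps27, an RNA-binding pentatricopeptide repeat protein of the small subunit, fell from 58.2, 56.7 and 57.4 CPM to 47.5, 47.5 and 45.5 CPM without Cys and to 48.6, 48.3 and 48.9 CPM without Thr. Both starved groups were thus lower at nearly the same level, and the difference of 0.05 between them was not called (SE 0.03, adjusted p = 0.17, edgeR).

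Besides Mrpl47, the largest rises with Cys were those of Mrps2, Mrpl27, Mrps34 and Mrps24. Mrps2, a small subunit protein with a bacterial counterpart, had 81.4, 85.1 and 83.1 CPM unstarved, 104, 104 and 101 CPM without Cys and 96.4, 92.0 and 95.4 CPM without Thr. Here the Cys-starved libraries were the highest, and Thr against Cys was called at −0.12 (SE 0.03, adjusted p = 6.3e-04). Mrpl27, which reaches towards the peptidyl transferase centre, rose by 0.22 with Cys and 0.34 with Thr; a pseudogene, Gm6304, aligns with 59.1% of its transcript and had 27% of its level. Mrps24, at the mRNA entry, rose by 0.18 (SE 0.04) with Cys, and its exons overlap Urgcp on its own strand over 226 bases. Mrps34 rose by 0.20 (SE 0.07), but its exons overlap Mapk8ip3 over 1309 bases and Nme3, not analysed here, on its own strand over 763 bases.

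Thr-starved and Cys-starved cells were also compared directly. Between them 37 members were higher with Thr and 24 lower, 48.1% and 31.2%, against 30.4% and 31.6% of all genes, 62% in either direction, and 43.7% and 36.9% of genes of at least 5 CPM. The median log2 fold change was 0.07 over the members and 0.04 over genes of at least 5 CPM. With library totals and no scaling factors 24 members were higher and 28 lower, and the medians were −0.01 over the members and −0.10 over all genes, where TMM gave −0.02 for the latter. Libraries did not overlap for 38 members on the higher and 24 on the lower side, against 32.1% and 33.6% of all genes, 65.8% together. For the 11410 genes of at least 5 CPM these counts were 5038 and 4273. The ends of the range were Mrpl34 at −1.24 (SE 0.05, adjusted p = 3.9e-16) and Mrpl32 at 0.77 (SE 0.05, adjusted p = 3.7e-12). Mrps12, Mrpl14, Mrpl22 and Mrpl12 followed on the lower side and Mrpl9, Mrps18c, Mrpl54 and Mrps18a on the higher.

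Some members lay above the unstarved level in one starvation and under it in the other. Both comparisons share the unstarved libraries, so the values are given side by side. For Thr and Cys in this order the log2 fold changes were 0.35 and −0.30 for Mrps18c, 0.17 and −0.29 for Mrps30, 0.25 and −0.16 for Mrps7, and 0.45 and −0.14 for Mrpl54. They were 0.23 and −0.27 for Mrpl48, 0.17 and −0.19 for Mrpl16, 0.10 and −0.11 for Mrpl10, and 0.14 and −0.14 for Mrpl46. Each of these was called in both, as was Mrpl18, given above at 0.22 and −0.32, which is how these members were picked. The share of all genes called in opposite directions was not computed. Mrpl1, which forms the mobile stalk at the tRNA exit side, showed the reverse with −0.17 for Thr and 0.13 for Cys, and stood at 39.5, 41.6 and 38.2 CPM unstarved, 42.0, 46.2 and 42.3 CPM without Cys and 35.1, 35.6 and 35.8 CPM without Thr. Its Cys call, like those of Mrpl10, Mrpl46 and Mrpl54 and, among the other members named for Cys, Mrps18a, Mrps34 and Mrps36, was lost in at least 1 alternative fit, as were the Thr calls of Mrpl46 and Mrps30. With GC and length offsets the Thr values of Mrpl1 and Mrpl54 were −0.35 and 0.81, and that of Mrps30 was 0.062.

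The members of the stalk differed from each other in direction. At the base of the large subunit stalk that recruits translation factors sit the products of Mrpl10 and Mrpl11, and Mrpl12 forms the stalk itself. With Thr starvation Mrpl11 went from 53.0, 51.4 and 54.6 to 31.7, 29.4 and 31.7 CPM, and Mrpl12 from 105, 99.8 and 102 to 59.8, 56.7 and 57.8 CPM. Mrpl10, by contrast, went from 57.3, 59.0 and 59.2 to 62.2, 61.8 and 64.4 CPM. Mrpl11 and Mrpl12 were lower by 0.77 and 0.81 on the log2 scale, and Mrpl10 was higher by 0.10 (SE 0.03, adjusted p = 0.0065). With GC and length offsets the Mrpl10 value was 0.16. With Cys the values of Mrpl11, Mrpl12 and Mrpl10 were −0.28, −0.17 and −0.11, all called, the last not with library totals.

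Mammals have 3 genes related to bacterial S18, and their products sit at different places. Mrps18a, in the large subunit, read 27.9, 27.3 and 27.01 CPM unstarved, 30.7, 28.6 and 30.4 CPM without Cys and 44.6, 45.7 and 44.3 CPM without Thr. Mrps18c had 17.7, 17.3 and 17.9 CPM unstarved, 14.8, 15.5 and 12.6 CPM without Cys and 22.5, 21.7 and 23.1 CPM without Thr. Both of these rose with Thr, by 0.71 (SE 0.04, adjusted p = 3.2e-13) and 0.35 (SE 0.06, adjusted p = 2.6e-05). Mrps18b, with 40.2, 42.0 and 40.2 CPM unstarved and 39.2, 42.7 and 41.3 CPM without Thr, was not called, with a 95% interval of the log2 fold change from −0.09 to 0.11. For Mrps18b, 38.6% of the transcript is shared with the pseudogene Gm13552, which had 42.6% of its level, and exons of Gm16279 overlap it over 638 bases. Exons of Mrps18c overlap those of Gm43511 on the same strand over 250 bases.

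**Figure D3:**
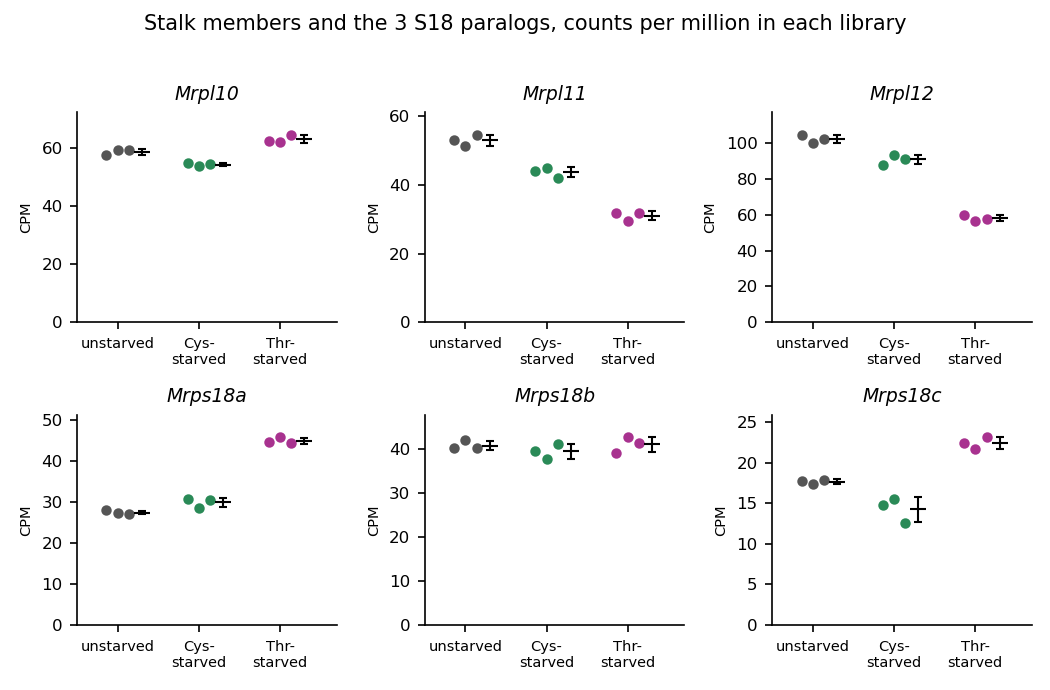
CPM (y axis, from 0) in each of the 9 libraries for the 3 stalk members Mrpl10, Mrpl11 and Mrpl12 (upper row) and the 3 genes Mrps18a, Mrps18b and Mrps18c (lower row); points are libraries and the bar beside them is the mean ± SD of 3. Without Thr, Mrpl11 and Mrpl12 lie under the unstarved libraries and Mrpl10 above them.

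At the peptidyl transferase centre and the upper tunnel, the members picked for their place moved less than Mrpl22 did. With Thr, Mrpl2 rose by 0.25 (SE 0.03), Mrpl4 by 0.17 (SE 0.03), Mrpl16 by 0.17 (SE 0.04) and Mrpl3 by 0.11 (SE 0.03), the last not called with GC and length offsets. These offsets moved Mrpl2 to 0.46, Mrpl4 to 0.49 and Mrpl16 to 0.10. With Cys, Mrpl2 rose by 0.12, while Mrpl3 and Mrpl4 were not called, at −0.00 and −0.01. Mrpl36, a small zinc-binding protein, was called in neither starvation, at −0.09 for Thr and 0.10 for Cys, but the Cys value was called higher in 6 of 21 fits and reached 0.15 with GC and length offsets and 0.17 with library totals. Its direct difference between them was called at −0.19. Of the mitochondrion-specific proteins with a known activity, Mrpl44, which has a ribonuclease III fold, fell by 0.18 (SE 0.04) with Thr. Mrpl45, at the tunnel exit by the inner membrane, fell by 0.09 (SE 0.03) with Thr and 0.19 (SE 0.03) with Cys, and the Thr call was lost without unstarved replicate 2 (adjusted p = 0.080, edgeR) and without Thr-starved replicate 2 (adjusted p = 0.053, edgeR). Mrpl58, a peptidyl-tRNA hydrolase that rescues stalled ribosomes, rose by 0.20 (SE 0.04) with Thr, and Mrpl41 rose by 0.31 (SE 0.06). Neither of these was called with Cys, at 0.09 and −0.05.

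With Thr 10 of the 29 Mrps members were not called, beside 8 of the 48 Mrpl members. Not called with Thr were 7454 of all 20143 genes and 2211 of the 11410 genes of at least 5 CPM. Mrps5, at the mRNA entry, read 96.3, 100 and 99.1 CPM unstarved and 96.9, 100 and 97.1 CPM without Thr, with a 95% interval of the log2 fold change from −0.08 to 0.06. Mrps7, in the head, and Mrps11, by the mRNA exit, rose by 0.25 (SE 0.03) and 0.32 (SE 0.05). Mrps35, a mitochondrion-specific protein, fell by 0.20 (SE 0.03) in each starvation. Mrps36 was not called with Thr, at −0.04 (SE 0.06), and fell with Cys by 0.22 (SE 0.06). That call was lost with the replicate block plus GC and length offsets (−0.15, adjusted p = 0.051, edgeR), and 2 pseudogenes share over 40% of its transcript and had 32% and 23.7% of its level.

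By symbol, 22 Mrpl members rose and 18 fell with Thr and 11 Mrps members rose and 8 fell. Of all genes, 31.1% were called higher and 31.9% lower with Thr, 17.5% and 18.8% with Cys, and 30.4% and 31.6% for Thr against Cys. For genes of at least 5 CPM these shares were 41.5% and 39.1%, 24.6% and 30.5%, and 43.7% and 36.9%. With Thr the median log2 fold change was 0.01 in each subunit. The large minus small difference of 2.7e-04 went from −0.018 to 0.015 with 1 library left out, so its sign is not settled. With Cys 6 Mrpl members rose and 19 fell, at a median of −0.06, and 8 Mrps members rose and 9 fell, at a median of −0.02. Thr against Cys gave medians of 0.11 for Mrpl, with 28 higher and 16 lower, and 0.04 for Mrps, with 9 higher and 8 lower. The 19 mitochondrion-specific large subunit members had a median of 0.14 with Thr, 10 higher and 6 lower, and of −0.09 with Cys, 2 higher and 10 lower. The 31 large subunit members with a bacterial counterpart had medians of 0.02 and −0.03. For the 17 small subunit members with such a counterpart the medians were 0.01 and −0.02, and for the 9 without one −0.13 and −0.02. These are descriptions, and no difference between subunits was tested.

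Summed over the genes the family changed by few percent, and the direction with Cys depended on scaling. As a share of all counts it was 0.365% ± 0.00114 in unstarved, 0.370% ± 0.00295 in Cys-starved and 0.357% ± 0.00351 in Thr-starved cells (SD, n = 3), with all Cys-starved libraries above and all Thr-starved ones under the unstarved. With TMM scaling the Cys-starved libraries were under the unstarved ones. The Mrpl sum was 2459 ± 2.53 CPM in unstarved, 2361 ± 26.2 in Cys-starved and 2400 ± 30.6 in Thr-starved cells with TMM (SD, n = 3), and neither starved group overlapped the unstarved one. The Mrps sum was 1229 ± 7.82, 1219 ± 6.80 and 1252 ± 4.90 CPM, where the Thr-starved libraries were the highest and the other groups overlapped. With subunits by place the small subunit sum was 1131 ± 6.50, 1130 ± 9.48 and 1132 ± 5.16 CPM, and all 3 groups overlapped. Scaled by transcript length, Mrps genes made up 31.8% ± 0.196 of the family in unstarved, 32.6% ± 0.107 in Cys-starved and 33.6% ± 0.204 in Thr-starved cells. With Mrps18a and Mrps30 counted in the large subunit and Mrps36 left out, the share was 29.1% ± 0.167, 29.9% ± 0.0635 and 29.9% ± 0.118, so that the libraries of the starved groups overlapped.

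**Figure D4:**
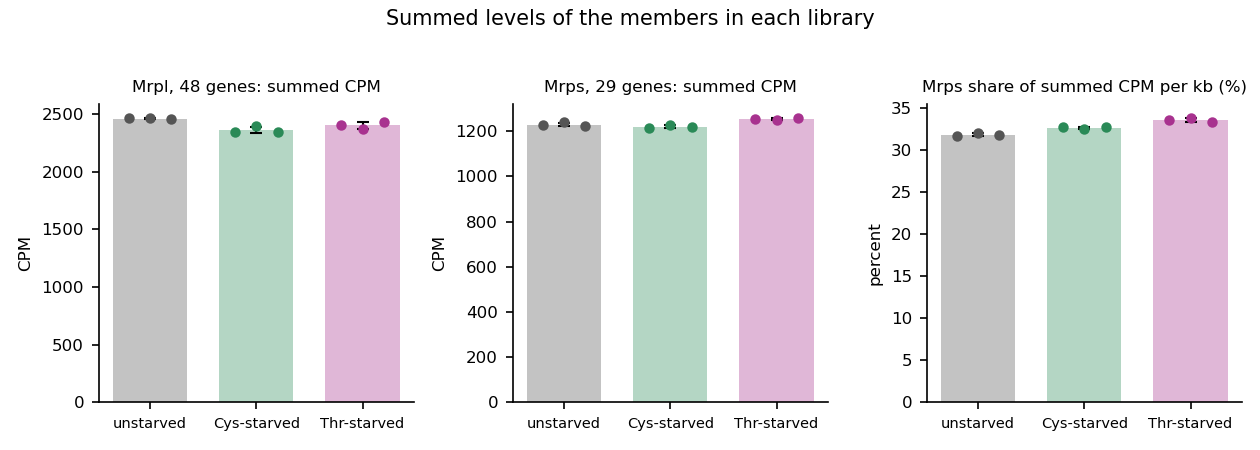
Summed CPM of the 48 Mrpl (left) and 29 Mrps genes (middle), and the Mrps share of the summed CPM per kilobase in percent (right), each with the y axis from 0; bars are the mean of 3 libraries with SD and points are libraries. The Mrpl sum lies between 2345 and 2462 CPM in all 9 libraries, and the share runs from 31.6% to 33.8%.

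Mitochondrial ribosome proteins with other symbols also went both ways. The counts of these and the following lists stand beside 63% of all genes called with Thr, 31.1% higher and 31.9% lower, and 36.3% with Cys, 17.5% higher and 18.8% lower, or 80.6% and 55% of genes of at least 5 CPM. With Thr, Dap3, a GTP-binding small subunit protein also named for its part in cell death, fell by 0.33 (SE 0.03) and Aurkaip1 by 0.41 (SE 0.03), Gadd45gip1 and Chchd1 rose by 0.15 and 0.18 (SE 0.05 each), and Ptcd3 was not called at 0.03. With Cys 1 of these 5 rose and 1 fell. Of 25 assembly and rRNA modification factors, 9 rose and 6 fell with Thr (median 0.07), and 10 rose and 3 fell with Cys (median 0.06). Mrm1, an rRNA methyltransferase, rose by 0.94 (SE 0.07, adjusted p = 1.6e-11) with Thr and 0.59 with Cys, and Mterf3, Nsun4 and Ddx28 rose by 0.62, 0.56 and 0.44 with Thr. Rbfa and Mtg1 fell by 0.56 and 0.44.

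Of 14 factors for mitochondrial translation, 1 rose and 6 fell with Thr, and 3 rose and 6 fell with Cys. The initiation factor gene Mtif3 rose with both, by 0.53 (SE 0.06) and 0.32, whereas Mtfmt, which formylates the initiator tRNA, fell by 0.71 (SE 0.07) and 0.22. Of 10 regulators of mitochondrial biogenesis in the table, 4 rose and 6 fell with Thr (median −0.35), and 2 rose and 5 fell with Cys (median −0.11). With Thr the values ran from −0.75 to 0.39. All 4 that rose with Thr are named below, but of the 6 that fell only Pprc1. Pprc1, a coactivator that works with NRF1, fell from 267, 271 and 271 CPM to 169, 172 and 166 CPM without Thr and 209, 206 and 213 CPM without Cys. The groups did not overlap. Gabpa and Gabpb1, the subunits of GABP, rose with Thr by 0.39 and 0.36 (SE 0.03 and 0.04), and Nrf1 rose by 0.13 (SE 0.03). Tfam, which packs mitochondrial DNA, rose by 0.08 with Thr and 0.34 with Cys.

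Of the 13 mRNAs that mitochondria encode, 3 rose and 2 fell with Thr and none rose and 2 fell with Cys. Their sum varied widely between unstarved libraries, from 4346 to 7437 CPM, a range that held all 6 starved libraries. Of the mitochondrial rRNAs, mt-Rnr2 of the large subunit had 182, 105 and 135 CPM unstarved, 124, 125 and 135 CPM without Cys and 261, 250 and 203 CPM without Thr. The Thr-starved libraries were the highest, by 0.76 (SE 0.11, adjusted p = 4.4e-06). The rRNA of the small subunit, mt-Rnr1, had 76.1, 46.8 and 62.9 CPM unstarved, 43.3, 44.9 and 44.5 CPM without Cys and 56.7, 54.1 and 42.5 CPM without Thr. It fell by 0.49 (SE 0.11) with Cys, and with Thr the groups overlapped, at −0.29 (SE 0.11, adjusted p = 0.026, edgeR). Libraries were made from poly(A) RNA, so rRNA values cover only what that selection kept.

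Cytosolic ribosomal proteins, the most alike group of genes, were lower more uniformly. Of 76, 11 rose and 54 fell with Thr (median −0.11), and none rose and 71 fell with Cys (median −0.13). Starved libraries lay wholly under the unstarved ones for 53 of them with Thr and 71 with Cys. Of all genes 33.9% and 23.5% did so, and of the 11410 genes of at least 5 CPM 4548 and 3991. With Cys their quartiles were −0.16 and −0.11, against −0.17 and 0.05 for the 77 mitochondrial members. With Thr the quartiles were −0.29 and −0.03 against −0.18 and 0.23.

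**Figure D5:**
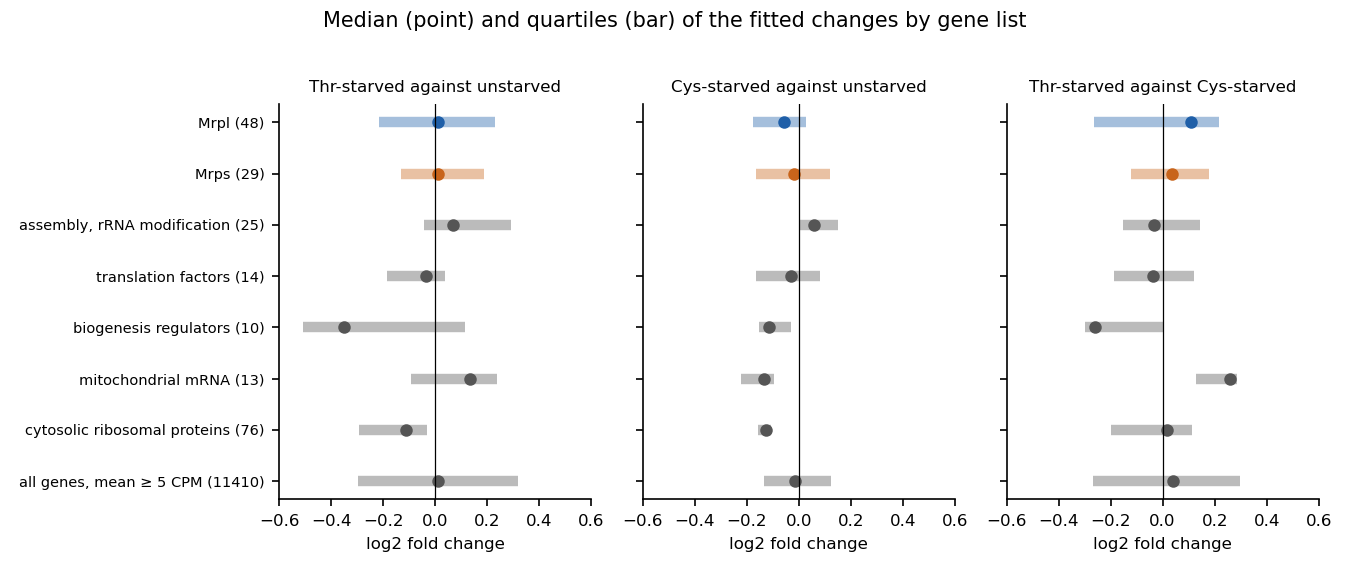
Median (point) and quartiles (bar) of the fitted log2 fold changes (x axis) for Mrpl, Mrps, 5 related lists and genes averaging 5 CPM or more (y axis, with the number of genes) in the 3 comparisons. The medians of Mrpl and Mrps lie between −0.06 and 0.11, and the cytosolic list lies at −0.11 with Thr and −0.13 with Cys.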

How the data were processed

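Poly(A) RNA of 9 E14 samples was sequenced from both ends in a single run. The authors aligned reads to GRCm38 with STAR 2.7.4a, obtained gene counts with HTSeq and deposited these raw counts. The authors also deposited signal values, the same counts divided by a DESeq2 size factor per library, which were used here only for those factors. Strand and overlap settings of the counting are not given in the sources used here. Even values made up 67.8% of counts from 1 to 20, so reads were probably counted per end and counting errors are larger than for single reads. The chi-square per gene between libraries of a group was 1.98 to 2.13 at 10 to 100 counts, near what counting both ends gives, and 2.61 to 5.21 at 1000 to 10000 counts in all pairs, so all 9 were kept as separate samples.

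Groups were read from sample titles. Counts were fitted in R 4.3.3 with edgeR 4.0.16 (TMM, quasi-likelihood F test, all 9 libraries, genes with a total of at least 1 count, Benjamini-Hochberg adjustment per comparison, threshold 0.05). Errors of fold changes are SE of the fit, and CPM are TMM-scaled. Members and gene lists were chosen with earlier results of these data known, so lists are described by counts and medians and were not tested. Members named in the text were the 5 largest called rises and falls per comparison with a mean of at least 5 CPM and groups apart, those called in opposite directions, a list picked for known roles, and the 3 highest and lowest per length. Genes of the related lists are given as examples, chosen after their values were seen. Positions and lengths came from GENCODE M21, promoters from RefSeq (GRCm38.p6), and near-identical transcripts from BLAST 2.17.0 at 97% identity or more.

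Alternatives were DESeq2 1.42.0, RLE scaling, the deposited size factors, filterByExpr, at least 10 counts in every library, only the groups compared, an adjusted p of 0.01, GC and length offsets (loess, span 0.3), the replicate block, subunits by place, each library left out, and, added after seeing the data, counts halved and library totals without scaling factors.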

Additional observations from a re-analysis of the deposited data

How the results depend on the processing

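Member counts held within 1.5 times under every alternative except for Cys rises, which went from 14 to 9 with the deposited size factors, to 9 at an adjusted p of 0.01 and to 25 with library totals, and rises for Thr against Cys, which went from 37 to 24 with library totals. The large minus small subunit median for Thr, 2.7e-04 by symbol, was 0.031 with subunits by place, −3.5e-04 with the replicate block and −0.018 to 0.015 with 1 library left out. For Thr against Cys it was 0.070, and became 0.091 by place, 0.11 with GC and length offsets, 0.11 with the offsets and the replicate block, and 0.054 to 0.089 with 1 library left out. Of the calls, 48 of 59 for Thr, 29 of 42 for Cys and 43 of 61 for Thr against Cys held in all 21 fits.

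Same-numbered samples are not stated to be paired. Their deviations correlated at −0.24 to 0.11, so no strong effect shared by number was seen. Such correlations cannot tell whether these samples were prepared together. With the replicate block 33 members rose and 26 fell with Thr, 14 and 27 with Cys, and 36 and 24 for Thr against Cys, and none of the 126 values of the 42 named members changed its call or direction.

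Of 2520 refitted values of named members, 2374 kept direction and call, 75 lost and 23 gained a call and 48 changed sign. Those that changed sign lay near 0 except Mrpl52 and Mrps34. With GC and length offsets, and then with the replicate block added, Mrpl52 with Thr went from −0.04 to 0.17 and 0.17, Mrps34 for Thr against Cys from −0.17 to 0.12 and 0.11, and Mrps35 there from −0.01 to 0.034 and 0.033. With Cys the same pair of fits gave 0.0082 and 0.0080 for Mrpl4, 0.023 and 0.024 for Mrpl22, 0.012 and 0.013 for Mrpl41, and 0.0079 and 0.0083 for Mrps11. The causes were not tested. Mrps35 for Thr against Cys was 0.0046 with DESeq2, 0.0043 with RLE, 0.038 with the deposited size factors and 0.0018 with filterByExpr. Mrpl3 with Cys was 0.0051 with at least 10 counts in every library, 0.0022 with only the groups compared and 9.9e-04 with counts halved, and Mrps5 with Cys was −0.0056 with the deposited size factors. With library totals Mrps18b was −0.0079 with Thr, the Cys values of Mrpl3, Mrpl4, Mrpl22, Mrpl41, Mrpl57, Mrps11 and Mrps18b were 0.061, 0.052, 0.018, 0.016, 0.052, 0.049 and 0.017, and for Thr against Cys Mrps18b was −0.025 and Mrps27 −0.028. With 1 library left out, ranges crossed 0 with Thr for Mrps5 (−0.024 to 0.011), Mrps18b (−0.017 to 0.045), Mrps34 (−0.068 to 0.077) and Mrps36 (−0.062 to 0.021), with Cys for Mrpl3 (−0.019 to 0.016), Mrpl4 (−0.028 to 0.020), Mrpl41 (−0.094 to 0.010) and Mrps11 (−0.060 to 0.036), and for Thr against Cys for Mrps35 (−0.026 to 0.019). Every member had at least 275 counts in every library.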
